A study of Mus musculus with 9 samples.

Results

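EGR, NR4A and IER genes are immediate early genes: they are transcribed within minutes of a signal from pre-existing factors, with no need for new protein. The 9 genes described here were chosen by symbol (Egr1, Egr2, Egr3, Nr4a1, Nr4a2, Ier2, Ier3, Ier5 and Nab2) from the 55291 genes counted in each library, and all 9 were found. They were chosen with their levels in these same libraries already known, so their levels and changes are a description and carry no p-value. The libraries hold RNA of mouse acute myeloid leukaemia (AML) cells with a Trp53(R172H/delta) genotype, a missense allele of the gene for p53 over a deleted one, in all 3 groups alike. The groups are cells grown in vitro (culture), cells taken from the bone marrow of wild-type recipient mice, and cells taken from the lungs of such mice, with 3 libraries each. Wild-type recipients keep their own blood and tissue cells, and how AML cells were separated from those of the host is not given in the sources used here. No label says whether replicates are separate cultures or mice, so the spread between them may be technical. The series title names tissue-specific microenvironments in AML as its subject, and the 3 groups ask how the same cells differ between a culture dish and each organ.

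Gene counts summed to between 27485111 and 38761363 reads per library, and levels are given as CPM, the read count scaled to the size of the library, where 1 read was worth 0.0249 to 0.0371 CPM. Of 20 markers of haematopoietic and leukaemia cells, Kit had mean levels of 1170 (culture), 633 (bone marrow) and 631 CPM (lung), and Myb of 545, 440 and 482 CPM in that order. Cebpa and Cd33, markers of myeloid cells, had 0 reads in culture, and Mpo was at 0.0247 CPM there. Markers of host cells moved with the groups. The summed level of 12 neutrophil markers was at 1.31 to 2.62 CPM in culture, 327 to 2050 CPM in bone marrow and 12.5 to 87.3 CPM in lung, with Ly6g at 0 in culture. The 12 alveolar and airway epithelium markers summed to 29.3 to 31.6 CPM in cultured cells, 11.7 to 26.8 CPM in marrow and 34.8 to 100 CPM in lung. Of them 6 were at 0 in culture, 4 in bone marrow (Sftpa1, Scgb3a2, Cldn18 and Krt8) and 0 in lung. The 12 endothelium markers summed to 176 to 187, 226 to 245 and 228 to 273 CPM in the same order, and the 12 T and NK cell markers to 3.08 to 4.19, 2.35 to 5.07 and 12.8 to 15.8 CPM. In culture, Hopx (mean 29.5 CPM) made up most of the epithelium sum, and Egfl7 (111 CPM) and Plvap (64.1 CPM) most of the endothelium sum. These sums of epithelium, endothelium and T and NK cell markers therefore do not measure host cells alone. In the edgeR fit described below, 8 of 11 tested endothelium markers passed as higher and 0 as lower in lung than in bone marrow. Passing means an adjusted p under 0.05, and 14.2% and 11.1% of all tested genes did. The median log2 change of the 11 was 3.8. Pecam1 had means of 0.125 (culture), 0.627 (bone marrow) and 5.2 CPM (lung), and Cdh5 of 0.0329, 0.0289 and 1.64 CPM.

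The EGR proteins are zinc finger transcription factors that bind GC-rich DNA, and NAB2 is a corepressor that EGR proteins induce and that then binds and silences them. NR4A1 (NUR77) and NR4A2 (NURR1) are nuclear receptors that act without a known natural ligand, and combined loss of Nr4a1 and Nr4a3 in mice is known to lead to myeloid leukaemia. IER2, IER3 and IER5 are small proteins named for their rapid induction, with IER3 (IEX-1) linked to cell survival under stress and IER5 to the heat shock factor HSF1. Growth factors and stress reach these genes through the ERK kinase cascade, serum response factor (SRF) with its ETS partners, and CREB.

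Upstream sequence is shown for the genes whose start sites carry the binding letters of those factors most densely, since this feature played no part in choosing the genes. RefSeq promoters (GRCm38.p6, 250 bases before to 50 after each start site) were matched for 6 of the 9 genes: Egr2 with 5 start sites, and Nr4a1, Nr4a2, Ier3, Ier5 and Nab2. Both strands were searched. Capitals mark the CRE core TGACG (read as CGTCA on the other strand) and the EGR site GCGNGGGCG in the first 2 sequences, which run from base -250 to -1 before the start site. In the third, of 30 bases, capitals mark a CArG box, the SRF site, and a CRE core. They lie on the plus strand at chr15:101266596-101266845, on the minus strand at chr2:57124004-57124253 and on the plus strand at chr10:67537793-67537822.
Nr4a1: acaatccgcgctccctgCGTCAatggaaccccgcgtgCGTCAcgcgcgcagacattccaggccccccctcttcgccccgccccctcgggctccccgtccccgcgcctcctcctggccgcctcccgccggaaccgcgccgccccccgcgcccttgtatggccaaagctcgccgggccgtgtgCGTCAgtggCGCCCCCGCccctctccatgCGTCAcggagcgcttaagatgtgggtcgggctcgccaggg
Nr4a2: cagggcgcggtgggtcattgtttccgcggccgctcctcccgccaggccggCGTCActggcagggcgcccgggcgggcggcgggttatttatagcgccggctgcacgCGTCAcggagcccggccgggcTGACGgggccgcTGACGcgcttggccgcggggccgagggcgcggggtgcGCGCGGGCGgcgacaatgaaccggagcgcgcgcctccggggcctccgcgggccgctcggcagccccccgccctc
Egr2: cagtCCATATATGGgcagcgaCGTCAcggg

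Nr4a1 and Nr4a2 each held 4 CRE cores in the 300-base window, a number reached by 0.515% of the 13204 promoters of tested genes. The cut of 4 was taken from these 2 promoters, so that share is a description only. At least 1 CRE core was present in 3 of the 6 matched genes, against 34.7% of 10395 tested genes with a promoter. The EGR site was present in Nr4a1 and Nr4a2, against 11.5% of genes. A CArG box was found in Egr2 alone, against 1.63% of genes, and Egr2 was searched in 5 windows where the other matched genes had 1. The ETS core CCGGAA was in Egr2 and Nr4a1 (31.6% of genes), and TATAAA in Nr4a2 (9.06%). Matches to a loose kappa B motif occurred in all 6 and in 70.6% of genes, so their presence separates these genes from few others. The CRE TGACGTCA, the AP-1 site TGANTCA and the NR4A site AAAGGTCA were in 0 of the 6, against 3.59%, 6.27% and 1.32% of genes.

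Across all 9 genes, levels were lowest in bone marrow. In bone marrow every library lay below every culture library and below every lung library for each gene. Lung against culture was mixed, with 3 genes higher (Nr4a1, Nr4a2 and Ier3), 1 lower (Nab2) and 5 whose groups overlapped. Groups were separate in the higher direction in 18.5% of all 15066 tested genes for lung against bone marrow, and in the lower direction in 32.9% for bone marrow against culture. For lung against culture the shares were 34% higher and 32.9% lower. The rule used these levels, so nothing is read from the counts. The plot of CPM by library shows every value.

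**Figure D1:**
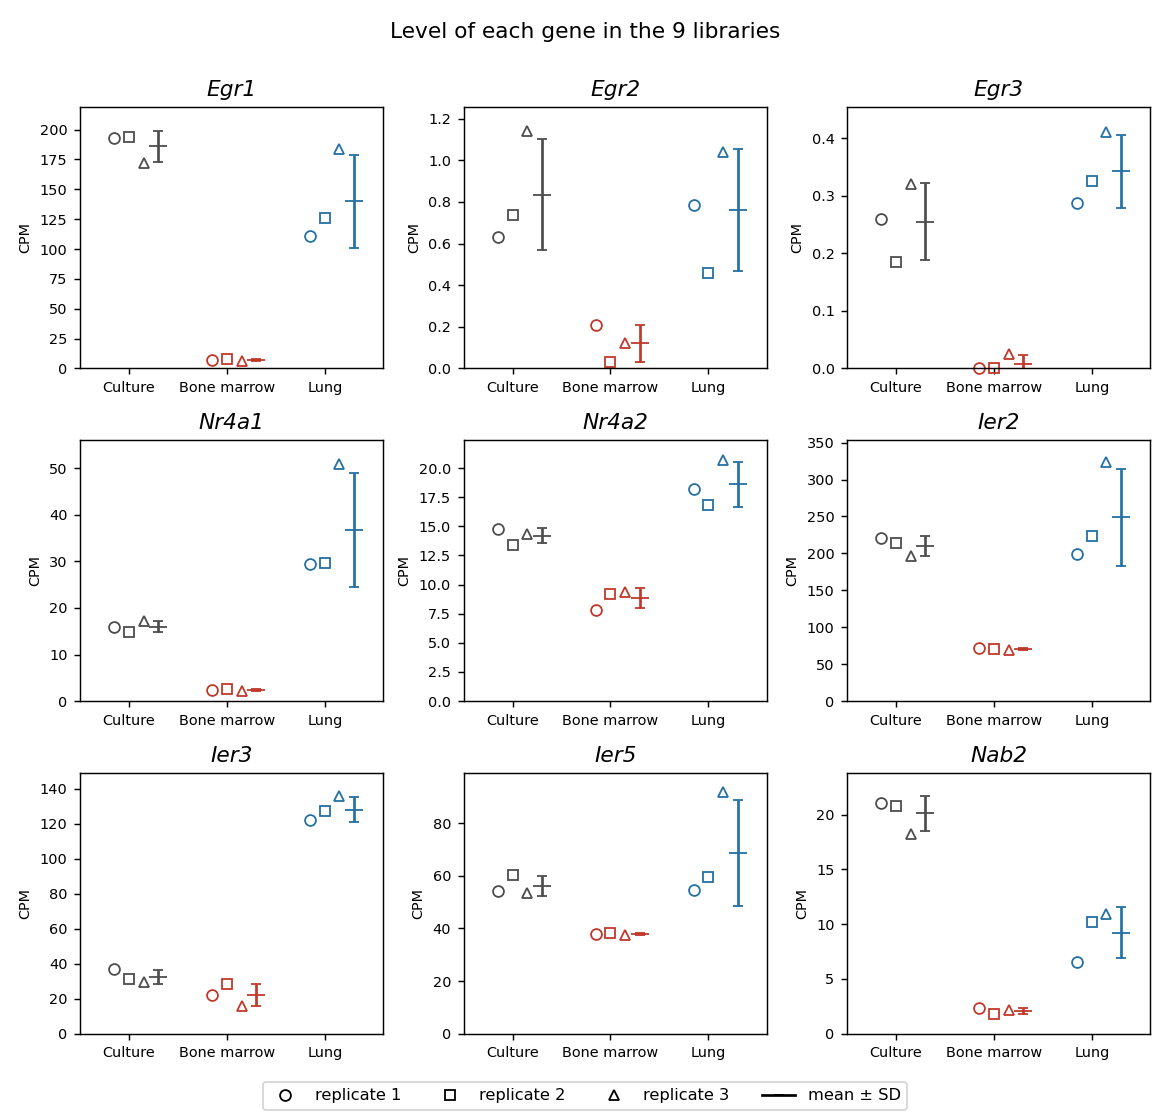
Level of each of the 9 genes (CPM, linear axis from 0, a scale of its own in each panel) in culture, bone marrow and lung. Open symbols are the 3 libraries of a group by replicate number and bars are the mean ± SD (n = 3). Bone marrow is the lowest group in each panel, and lung replicate 3 is the highest lung library in all 9.

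Egr1 had the most abundant RNA of the EGR genes in every library and the largest change among the 8 genes that could be fitted. It was at 193, 194 and 172 CPM in culture, at 7.20, 7.59 and 6.56 CPM in bone marrow and at 111, 126 and 184 CPM in lung replicates 1 to 3. Bone marrow thus held 3.83% of the culture level, while the lung libraries overlapped culture through replicate 3. The log2 change, from a fit across all tested genes, was -4.71 ± 0.19 (SE) for bone marrow against culture and 4.30 ± 0.18 for lung against bone marrow. For lung against culture it was -0.41 ± 0.15 and kept its sign in all 17 alternative analyses, between -0.67 and -0.26. Egr1 spans 34859823 to 34864984 on chromosome 18 (GRCm38, GENCODE M21).

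Egr2 and Egr3, its close relatives, were also lowest in bone marrow, at a few reads per library. Egr2 had 17, 24 and 32 reads in culture, against 7, 1 and 5 in bone marrow and 30, 14 and 33 in lung. Pooled over libraries and scaled for depth, Egr2 was 6.26-fold higher in lung than in bone marrow (77 against 13 reads, exact binomial 95% interval 3.45 to 12.3). Egr3 had 7, 6 and 9 reads in culture, against 0, 0 and 1 in bone marrow and 11, 10 and 13 in lung, too few for the filter on low counts, so it was not fitted. Its pooled ratio of lung to bone marrow was 35.9 (34 reads against 1), with an interval of 6.03 to 1460. These intervals cover counting error only and treat amplified reads as independent. Both genes were within counting error of culture in lung (Egr3 ratio 1.35, interval 0.766 to 2.42). Per kilobase of exon, Egr1 made up 96.3% to 99.5% of the summed level of the 3 EGR genes in the 9 libraries. Egr2 lies on chromosome 10 from 67535475 to 67542188 and Egr3 on chromosome 14 from 70077203 to 70082614.

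Nab2 encodes the corepressor that feeds back on EGR factors, and in lung it stood further below culture than Egr1 did. It was at 21.1, 20.8 and 18.2 CPM in culture, 2.38, 1.83 and 2.14 CPM in bone marrow and 6.57, 10.2 and 10.9 CPM in lung. The 3 groups did not overlap, with lung at 45.9% of culture. The log2 change was -3.24 ± 0.20 for bone marrow against culture, 2.12 ± 0.20 for lung against bone marrow and -1.12 ± 0.18 for lung against culture. Nab2 (chromosome 10, 127660918 to 127668568, minus strand) overlaps Stat6 and Nemp1 on the other strand, and whether counting used strand is not given in the sources used here. It also overlaps the antisense gene Gm16229. For bone marrow against culture Stat6 was at -0.54 ± 0.07 and Nemp1 at -0.84 ± 0.12 (log2 change ± SE). How far reads of these genes enter the Nab2 counts was not tested.

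The nuclear receptor gene Nr4a1 was above its culture level in lung. It was at 16.0, 14.8 and 17.3 CPM in culture, 2.35, 2.6 and 2.26 CPM in bone marrow and 29.5, 29.7 and 51.0 CPM in lung. The groups did not overlap, and the mean in lung was 230% of that in culture. The log2 change was 3.93 ± 0.22 for lung against bone marrow, -2.74 ± 0.21 for bone marrow against culture and 1.20 ± 0.19 for lung against culture. Nr4a2 had the same order over a narrower range, with 14.8, 13.4 and 14.3 CPM in culture, 7.82, 9.23 and 9.37 CPM in bone marrow and 18.2, 16.8 and 20.7 CPM in lung. Its groups were separate too, and its log2 change was 1.08 ± 0.13 for lung against bone marrow. Both genes have the promoters with 4 CRE cores shown above. Nr4a1 spans 101254269 to 101274795 on chromosome 15 and Nr4a2 57106830 to 57124003 on chromosome 2.

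Ier3 stood furthest above culture in lung. Its level was 37.0, 31.4 and 29.3 CPM in culture, 22.0, 28.2 and 15.9 CPM in bone marrow and 122, 127 and 136 CPM in lung. The lung libraries were close to each other (SD 7.08 CPM), whereas bone marrow and culture came near to touching. The log2 change was 1.98 ± 0.17 for lung against culture, 2.54 ± 0.17 for lung against bone marrow and -0.56 ± 0.17 for bone marrow against culture. Ier2, the most abundant of the 9, was at 221, 214 and 196 CPM in culture, 71.4, 70.5 and 69.4 CPM in bone marrow and 199, 224 and 324 CPM in lung. Lung overlapped culture, and bone marrow lay apart at 33.5% of the culture level.

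Ier5 had the smallest change between the tissues, a log2 change of 0.85 ± 0.16 for lung against bone marrow. It was at 54.3, 60.5 and 53.4 CPM in culture, 38.0, 38.4 and 37.5 CPM in bone marrow and 54.7, 59.5 and 91.8 CPM in lung. Lung replicates 1 and 2 sat within the culture range and replicate 3 above it. Ier2 lies on chromosome 8 (84661331 to 84662852), Ier3 on chromosome 17 (35821684 to 35822923) and Ier5 on chromosome 1 (155096361 to 155099636).

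In the fit, 8 genes were tested and 8 passed as higher in lung than in bone marrow, at a Benjamini-Hochberg adjusted p under 0.05 in edgeR's quasi-likelihood test, where 14.2% of all tested genes did (25.3% in either direction). Over all genes 2138 were higher and 1668 lower in lung than in bone marrow, a split that turned to 1796 and 2088 with upper-quartile scaling. All 8 passed as lower in bone marrow than in culture (29.8% of all tested genes, 60.5% in either direction), where Ier3 lost its call without culture replicate 1. For lung against culture 3 passed as higher and 2 as lower (27.9% and 27% of all tested genes, 54.9% in either direction). The median log2 change of the 8 was 2.33 between lung and bone marrow, beside -0.01 over all tested genes. It was -2.16 from culture to bone marrow (all genes 0.05) and 0.27 from culture to lung (all genes 0.02). The contrasts share libraries, and those counts are a description, since the genes were chosen on these levels. Without lung replicate 3 the median for lung against culture was 0. The call of Nr4a2 there was lost without culture replicate 1, culture replicate 2 or lung replicate 3. The call of Egr1 there was lost in 9 of the 17 alternatives, among them those without lung replicate 1 or 2, culture replicate 1 or 2, and bone marrow replicate 1 or 2. Ier2 and Ier5 passed as higher in lung than in culture without lung replicate 1.

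**Figure D2:**
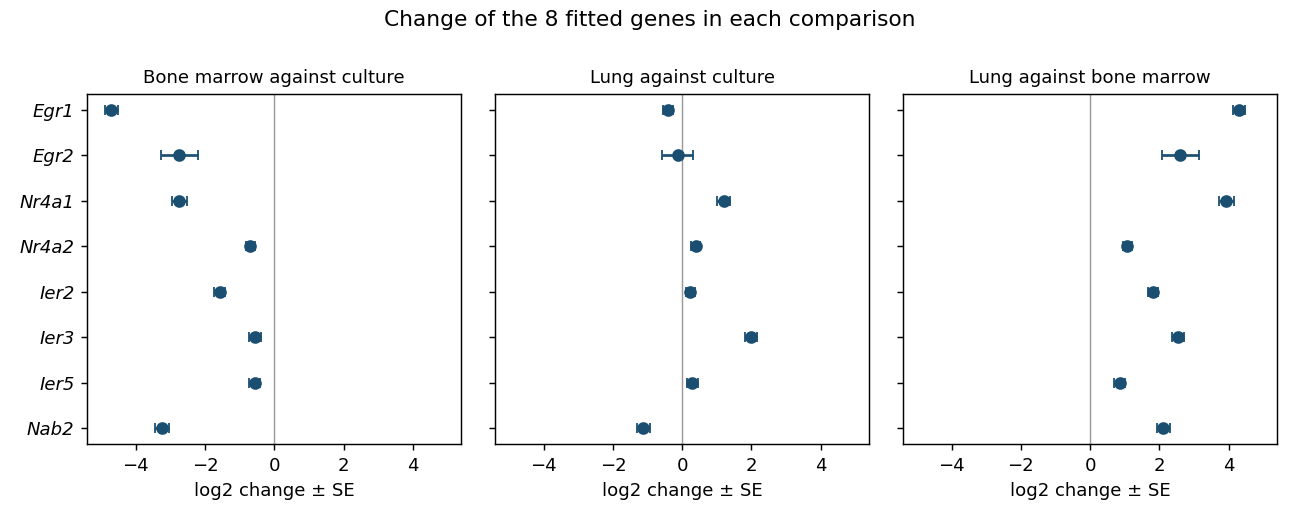
Log2 change ± SE (x axis) of the 8 fitted genes (y axis) in each of the 3 comparisons named above the panels, from 1 fit on 9 libraries. Points lie left of 0 in the first panel and right of 0 in the last, and on both sides in the middle one, from -1.12 (Nab2) to 1.98 (Ier3).

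The genes did not move in proportion, and the ratios of their reads within a library show this. There were 1.14, 1.10 and 1.14 Ier2 reads per Egr1 read in culture, against 9.92, 9.29 and 10.6 in bone marrow and 1.80, 1.78 and 1.76 in lung. This ratio does not depend on depth, and within lung it varied little (SD 0.0226) although both genes were over 1.5 times higher in replicate 3. Nr4a1 reads per Egr1 read stood at 0.0866 ± 0.0128 in culture, against 0.338 ± 0.0100 in bone marrow and 0.260 ± 0.0215 in lung (mean ± SD, n = 3). Lung cells thus held Egr1 and Nr4a1 in a ratio nearer to bone marrow than to culture, without overlap between any groups.

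Nab2 reads per Egr1 read were 0.331, 0.241 and 0.326 in bone marrow, above the 0.106 to 0.110 of culture, and below culture in lung at 0.0594, 0.0809 and 0.0590. The ratio of Nr4a1 to Nr4a2 reads ran from 0.241 to 0.300 in bone marrow, from 1.08 to 1.21 in culture and from 1.62 to 2.47 in lung. These ratios were computed after the levels had been seen and carry no test.

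**Figure D3:**
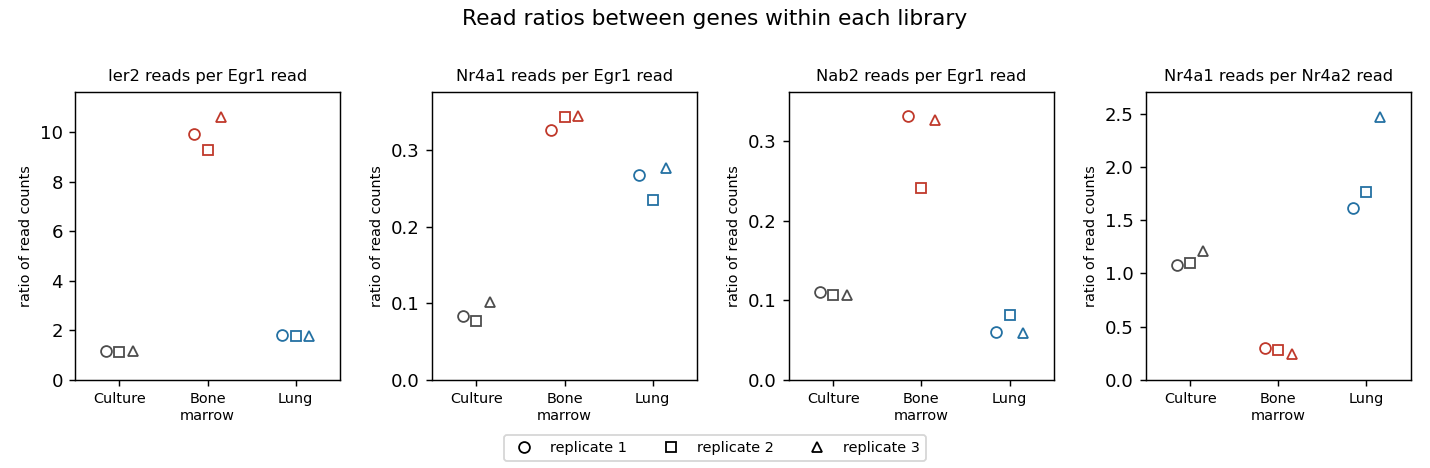
Ratio of read counts of 2 genes within the same library (y axis, linear from 0) for 4 pairs, by group, with a symbol for each replicate. The Ier2 to Egr1 ratio is between 9.29 and 10.6 in bone marrow and between 1.10 and 1.80 in the other groups.

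Between genes, levels are comparable only per length of exon, given here as CPM per kilobase (mean ± SD, n = 3). In lung the order was Ier2 (164 ± 43.2), Ier3 (113 ± 6.26), Egr1 (31.2 ± 8.68), Ier5 (20.9 ± 6.17), Nr4a1 (10.5 ± 3.51), Nr4a2 (4.58 ± 0.480), Nab2 (3.13 ± 0.789), Egr2 and Egr3. Egr1 and Ier5 overlapped between lung libraries, but within each lung library Egr1 was the higher of them. In culture Egr1 stood second at 41.5 ± 2.83, behind Ier2 at 138 ± 8.48. In bone marrow Egr1 stood in the fifth place at 1.59 ± 0.115, behind Ier2 (46.3 ± 0.664), Ier3 (19.5 ± 5.44), Ier5 (11.6 ± 0.127) and Nr4a2 (2.17 ± 0.211). Nab2 and Nr4a1 did not differ there beyond their spread, at 0.717 ± 0.0942 and 0.684 ± 0.0502.

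Spread between replicates had its own pattern. In bulk RNA, fewer cells of a type and less RNA per cell cannot be told apart. In lung the median coefficient of variation (SD over mean) was 26.4% for the 7 genes of 1 CPM or more, against 9.38% for all 11779 genes at that level. In bone marrow it was 7.32% against 11.7%, and in culture 6.84% against 5.09%. Lung replicate 3 was the highest lung library for all 9 genes, from 1.09 times the mean of the other lung libraries (Ier3) to 1.72 times (Nr4a1). It was the highest for 37.8% of all tested genes. Lists of host cell markers differed in where they peaked in lung. T and NK cell markers (14.3, 12.8 and 15.8 CPM in replicates 1 to 3), B cell markers (65.3, 13.9 and 88.8 CPM) and erythroid markers (579, 676 and 721 CPM) were highest in replicate 3. The B cell and erythroid lists were higher still in culture, at 310 to 325 and 907 to 931 CPM. Epithelium markers (100, 63.1 and 34.8 CPM), endothelium markers (273, 228 and 271 CPM) and neutrophil markers (87.3, 12.5 and 13.5 CPM) were highest in replicate 1. In bone marrow, neutrophil markers summed to 327, 586 and 2050 CPM in replicates 1 to 3, and replicate 3 was the lowest marrow library for 5 of the 9 genes (Egr1, Nr4a1, Ier2, Ier3 and Ier5). The same library was the highest for 2 genes, Nr4a2 and Egr3. The share of all tested genes lowest in it was not computed. Across the marrow libraries Egr1 ranged from 6.56 to 7.59 CPM and Ier2 from 69.4 to 71.4 CPM, whereas Ier3 ranged from 15.9 to 28.2 CPM and Egr2 from 0.031 to 0.208 CPM. What host cells add to the levels in either tissue was not tested. Tissue and the handling of cells on the way from that tissue to RNA cannot be told apart in this design.

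The structure of the genes, which the choice did not use, was compact. Median gene span was 5412 bases, from 1240 (Ier3) to 20527 (Nr4a1), against 23331 over 11955 tested coding genes. Ier2 and Ier5 have 1 exon, and Egr1, Egr2, Egr3 and Ier3 have 2 in their longest coding transcript, while Nab2 has 7 and both NR4A genes 8. The median was 2 exons, and 7.08% of tested coding genes have that few. The pentamer ATTTA, the core of AU-rich elements that mark short-lived mRNA, occurred 3 or more times in the 3′ UTR of 6 of the 9 genes (32.8% of tested coding genes), 7 times in Egr3, and 0 times in Ier2.

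In a comparison added after the data had been seen, the nearest tested coding gene on each side gave 18 neighbours, and they were counted in each comparison. Of these, 4 passed as higher and 0 as lower in lung than in bone marrow (14.2% and 11.1% of all tested genes), with a median log2 change of 0.15. Without bone marrow replicate 2 or lung replicate 2 the count of higher neighbours was 2. In bone marrow against culture 2 neighbours rose and 11 fell (30.7% and 29.8% of all tested genes), with a median of -0.44. In lung against culture 2 rose and 9 fell (27.9% and 27%), with a median of -0.30, and 4 rose without bone marrow replicate 1. Flot1, which begins 307 bases from Ier3 and encodes a membrane scaffold protein, had a log2 change of 0.07 where Ier3 had 2.54. Ddr1, a collagen receptor gene on the other side of Ier3, rose by 1.33 (adjusted p = 0.013, edgeR). Etf1 and Reep2, on either side of Egr1, were at 0.11 and 0.43 and did not pass.

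**Figure D4:**
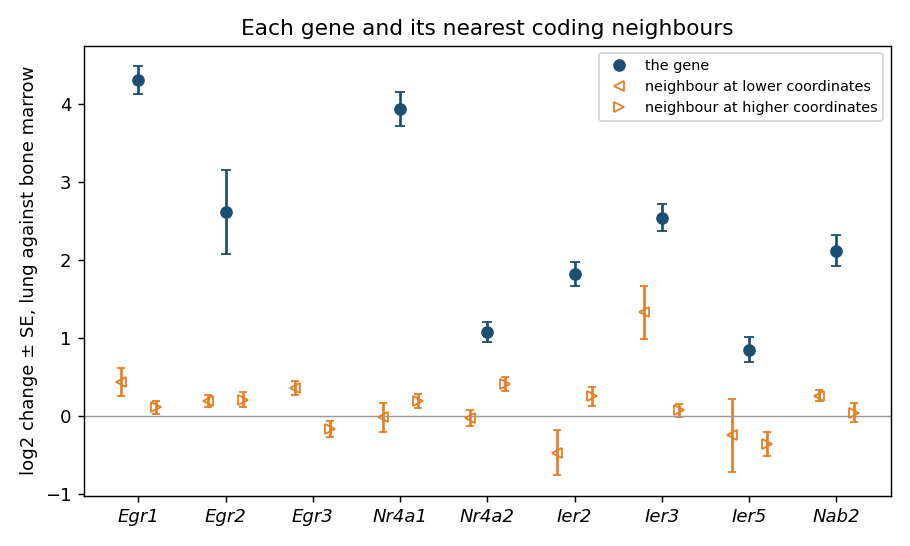
Log2 change ± SE from bone marrow to lung (y axis) of each gene and of the nearest tested coding gene on either side (x axis, by gene; Egr3 itself was not fitted). The neighbours lie between -0.47 and 1.33 and the 8 fitted genes between 0.85 and 4.30.

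Among other members of the same families, the tested relatives were lowest in bone marrow as well. Nr4a3, the third NR4A receptor gene, had 13, 7 and 11 reads in culture, against 4, 0 and 0 in bone marrow and 15, 7 and 13 in lung, and rose in lung against bone marrow (log2 change 3.06 ± 0.83, adjusted p = 0.017, edgeR). Without bone marrow replicate 2, and in a fit of the 6 tissue libraries by themselves, 1 of the 2 tested relatives passed as higher in lung. Nab1, the sister corepressor of Nab2, fell in bone marrow against culture by 0.65 ± 0.08 (adjusted p = 1.6e-05, edgeR), a smaller difference than the -3.24 of Nab2. Ier5l had 0, 0 and 0 reads in culture, against 0, 0 and 1 in bone marrow and 14, 4 and 9 in lung, and was not fitted. Egr4 had 0 reads in every library.

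The lists that follow were fixed with earlier results of these data known. Of 22 genes of the ERK cascade, 8 rose and 0 fell in lung against bone marrow (14.2% and 11.1% of all tested genes), and 3 rose and 15 fell in bone marrow against culture (30.7% and 29.8% of all tested genes). The kinase gene Map2k1 (MEK1) fell in bone marrow by 1.75 ± 0.09 on the log2 scale (adjusted p = 4.1e-09, edgeR) and stayed low in lung. It was at 129 to 139 CPM in culture, 38.9 to 42.1 CPM in bone marrow and 47.0 to 56.1 CPM in lung. Rps6ka1, the gene of a kinase activated by ERK, went the other way, higher by 1.59 ± 0.12 in bone marrow and by 1.55 ± 0.12 in lung than in culture. The count that rose in lung against bone marrow was the least stable, at 5 without culture replicate 1 or 2 or bone marrow replicate 3, and at 4 without bone marrow replicate 2 or lung replicate 1. It was 3 when lung replicate 2 was left out, and 2 in a fit of the 6 tissue libraries by themselves. The median log2 change of the list was 0.10 for lung against bone marrow. In lung against culture 4 rose and 11 fell (27.9% and 27% of all tested genes).

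Of 17 genes for SRF, ETS, CREB and MEF2 factors, 8 rose and 0 fell in lung against bone marrow, with a median of 0.41, where 14.2% and 11.1% of all tested genes did. Without bone marrow replicate 3, 1 fell. In bone marrow against culture 3 rose and 8 fell (30.7% and 29.8% of all genes), and in lung against culture 4 rose and 4 fell (27.9% and 27%). Srf was at 44.5, 45.4 and 45.1 CPM in culture, 45.8, 36.9 and 37.2 CPM in bone marrow and 65.9, 69.3 and 81.1 CPM in lung. It rose in lung against bone marrow (0.85 ± 0.11, adjusted p = 0.00015, edgeR) and did not pass for bone marrow against culture (-0.17, adjusted p = 0.18, edgeR). Crem, the gene of a CREB-family modulator, rose by 1.36 ± 0.11 in lung against bone marrow and fell by 2.25 ± 0.11 in bone marrow against culture.

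Of 43 tested immediate early genes outside the 9, 34 rose and 1 fell in lung against bone marrow, with a median log2 change of 2.5, where 14.2% and 11.1% of all tested genes did. In bone marrow against culture 6 rose and 26 fell (30.7% and 29.8% of all genes), and in lung against culture 25 rose and 6 fell (27.9% and 27%). The gene that fell in lung was Myc (-0.41 ± 0.08, adjusted p = 0.0026, edgeR), a growth regulator.

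Of 18 tested genes reported as EGR1 targets, 8 rose and 1 fell in lung against bone marrow, with a median of 0.44, where 14.2% and 11.1% of all tested genes did. The count that fell was 0 without bone marrow replicate 2 or lung replicate 1, and 2 when lung replicate 2, or replicate 1 or 3 of bone marrow, was left out. In bone marrow against culture 3 rose and 11 fell (30.7% and 29.8% of all genes), and 0 rose without culture replicate 1, culture replicate 2 or bone marrow replicate 3. In lung against culture 5 rose and 6 fell, shares close to the 27.9% and 27% of all genes. Cdkn1a, the cell cycle inhibitor p21, rose by 3.34 ± 0.31 in lung against bone marrow (adjusted p = 7.6e-05, edgeR). Vegfa, the blood vessel growth factor, fell in bone marrow by 6.43 ± 0.44 and in lung by 3.55 ± 0.36 relative to culture. Gadd45a, a stress response gene, rose by 1.68 ± 0.11 in lung against bone marrow (adjusted p = 3.2e-07, edgeR).

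Of 12 tested partners and reported targets of the NR4A receptors, 4 rose and 1 fell in lung against bone marrow, with a median of 0.18, where 14.2% and 11.1% of all tested genes did. The count that fell was 2 without culture replicate 3, lung replicate 1 or lung replicate 3. In bone marrow against culture 2 rose and 6 fell (30.7% and 29.8% of all genes), and the number that rose was 4 when replicate 3 of culture or of bone marrow was left out. The numbers were 4 and 4 in lung against culture (27.9% and 27% of all genes). Nfkbia, the NF-kappa B inhibitor, rose by 2.68 ± 0.20 in lung against bone marrow (adjusted p = 2.5e-05, edgeR). Of the counts above, the 5 EGR1 targets that rose in lung against culture ranged from 1 under a stricter filter to 9 with no filter, and the 4 NR4A genes that rose in lung against bone marrow were 2 under the stricter filter and in the fit of the 6 tissue libraries.

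The genes most like each of the 8 were found by Pearson's r of log2 CPM over the 9 libraries among 8902 genes. The libraries fall into 3 groups, so r mostly reflects the group means, and no p is given. For Egr1 they were Gadd45a (0.996), the NF-kappa B subunit gene Relb (0.992) and Zbtb21 (0.987). For Nr4a1 they were Atf3 (0.991), a stress-induced transcription factor gene, Gbp7 (0.988) and Tnfrsf12a (0.987), and Atf3 and Gbp7 also came first for Nr4a2 (0.990 and 0.981). For Ier2 they were Shkbp1 (0.990), Ppp1r15a (0.987) and Btg2 (0.986), and for Ier3 they included Sik1 (0.992) and Plk3 (0.977). Nab2 was most like Bsdc1 (0.997), Egr2 most like Ppp3r1 (0.988) and Ier5 most like Traf5 (0.966). Among the genes described, Nr4a1 and Nr4a2 had an r of 0.98, as had Nr4a1 and Ier2, whereas Ier3 and Nab2 had 0.36.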

How the data were processed

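Gene counts were analysed for 9 libraries of mouse AML cells, 3 each from culture, bone marrow and lung. The deposited values are counts of reads per gene, 1 file for each library, which the authors made from SMART-seq v4 libraries. The submitters' processing notes name bcl2fastq, STAR and mm10. For the counting tool, annotation and strand setting, each is not given in the sources used here. Total counts ran from 27485111 to 38761363 per library.

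Counts were fitted for all 9 libraries together with edgeR 4.0.16 (R 4.3.3), using TMM scaling, filterByExpr (15066 genes kept) and the robust quasi-likelihood test. P-values were adjusted by the Benjamini-Hochberg method over all tested genes, with a threshold of 0.05, and the SE is the log2 change over the square root of F. CPM uses TMM-scaled library sizes. The steps were tested on simulated data. The 9 genes and the lists were chosen with earlier results of these data known. Other genes were named by a rule: per list and comparison, up to 3 in each direction with the largest change among those that passed and reach 10 CPM in the higher group, the most abundant markers, and the 3 genes most like each of the 8. Nr4a3, Ier5l, Egr4, Pecam1, Cdh5, the neighbours and markers at 0 stand outside it and were chosen after their values were seen. Alternatives were other scalings and filters, DESeq2 1.42.0, a replicate block, the 6 libraries of a comparison alone and leaving out each library. Gene positions are from GENCODE M21 (GRCm38) and promoters from RefSeq (GRCm38.p6). Egr1, Egr3 and Ier2 had no entry among the promoters. A gene that the naming rule also picks is not reported here.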

Additional observations from a re-analysis of the deposited data

Results flagged for a closer look

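For 3 of the 9 genes the tissues lay on opposite sides of culture: every bone marrow library was below and every lung library above every culture library. They are Nr4a1, Nr4a2 and Ier3, with a log2 change from bone marrow to lung of 3.93, 1.08 and 2.54. The pattern was present in 163 of 15066 tested genes (1.08%). The difference between the tissues' effects was not tested as independent evidence, because both comparisons share the culture libraries and the genes were chosen on these levels.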

How the results depend on the processing

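All 405 log2 changes of the 8 fitted genes under the 17 alternatives (16 for Egr2) stayed within 1 SD of the value reported. The SD is that of log2 CPM between replicates, in whichever of the 2 compared groups had the larger. Leaving out 1 of 3 libraries can hardly move a group mean that far. For the 9 alternatives of that kind the outcome was thus nearly fixed in advance and shows little. Some calls of these genes did change, as given above. Egr2 (2 alternatives) and Ier2 (1 alternative) changed sign for lung against culture, where both were near 0. The median log2 change for bone marrow against culture was -1.56 under a stricter filter, which leaves 7 genes. Genes passing for lung against bone marrow numbered 2381 with the 6 libraries alone, against 3806. Leaving out each library in turn gave 2414 (without lung replicate 2) to 4760 (without bone marrow replicate 1) genes for lung against bone marrow, with 2473 without bone marrow replicate 2. The ranges were 7962 to 9343 for bone marrow against culture and 7142 to 8865 for lung against culture. The median change ranged from 2.11 to 2.45, from -2.19 to -1.95 and from 0 (without lung replicate 3) to 0.40 in the same order. The causes were not tested. Of 714 counts for lists and neighbours under the alternatives, 663 were within 1.5 times the reported count.

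Replicate numbers share no stated origin, so same-numbered libraries were not taken as pairs. Residuals of same-numbered bone marrow and lung libraries had correlations of 0.03, 0.27 and 0.09 for replicates 1 to 3. Bone marrow and lung libraries of unlike number had -0.24 to 0.14. With 3 replicates a group, these values cannot tell whether bone marrow and lung came from the same mice. With the replicate block 4133, 9228 and 8433 genes passed between lung and marrow, marrow and culture, and lung and culture, and the median changes were 2.34, -2.16 and 0.25. The call of Egr1 for lung against culture was lost. With at most 33 reads per library for Egr2 and 13 for Egr3, counting error limits what can be said of both.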
